A study of Mus musculus with 6 samples.

Results

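Ferroptosis is a form of cell death in which membrane phospholipids that carry polyunsaturated fatty acids become peroxidised in a reaction that needs iron. The 10 transcripts described here encode proteins that hold this reaction back, proteins that supply its lipid substrate, and proteins that take up, store, release or export iron. They are Aifm2 and Gch1 (suppressors), Acsl4 and Lpcat3 (suppliers of polyunsaturated phospholipids), Tfrc and Steap3 (iron uptake), Fth1 and Ftl1 (ferritin, the iron store), Ncoa4 (ferritin breakdown) and Slc40a1 (iron export). They were chosen by gene name, from their known functions, out of 22355 rows of the deposited table, and each of the 10 names matched 1 row. Earlier results of these data were known when they were chosen.

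The cells were mouse embryonic fibroblasts (MEFs), connective tissue cells cultured from embryos. In 3 libraries the cells had received a small interfering RNA against Hk2, which encodes the glucose-phosphorylating enzyme hexokinase 2 (siHk2), and in the other 3 a negative control siRNA (siControl). The comparison asks which transcripts differ when Hk2 is knocked down. The labels name no mouse strain, harvest time, siRNA sequence or separate cultures behind the libraries. Each p-value therefore reflects variation among these 6 libraries, which may be technical. Libraries are named by the numbers in the deposited table, 1, 2 and 3 for siHk2 and 4, 5 and 6 for siControl.

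Levels are in TPM, a share of all transcripts after correction for gene length. Sequencing depth cannot be read from such shares and is unknown here, and no counting interval can be given. Between 18419 and 18757 genes had a TPM above 0 in a library. Hk2, the target, was at 22.4, 21.4 and 21.8 TPM in the siHk2 libraries, against 57.1, 62.5 and 58.9 TPM in the siControl libraries, so every siHk2 library carried the knockdown. Within each group the libraries were spread unevenly. On the second principal component of the log2 values (25.7% of the variance), siHk2 library 2 (-13.7) and siControl library 5 (-17.8) lay at the opposite end from siHk2 library 1 (11.97) and siControl library 6 (17.5). Where leaving out libraries 2 and 5 together ends or adds the call of a named gene, that value is given beside it. That setting was not recorded for the cell type markers, Ftl1-ps1, Por, Cyb5r1 and Aloxe3, so nothing can be read from its absence there. Of 10 fibroblast markers, 7 reached a mean of 1 TPM. The other 3, Thy1, Dcn and Lum, stayed below 1 TPM in every library. No hepatocyte marker of 10 listed reached a mean of 1 TPM, and the leukocyte marker Ptprc was at no more than 0.1 TPM in any library. Of 12 listed macrophage markers, 4 reached a mean of 1 TPM (Cd68, Cd14, Lyz2 and Tyrobp), with Cd68 at 34.9 to 56.3 TPM.

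Of the 10 genes, 9 reached a mean of 1 TPM and were tested, in limma on log2(TPM + 1). A gene passed when its p-value, adjusted by Benjamini-Hochberg over 13341 genes, was under 0.05. Aifm2 and Acsl4 rose in siHk2, none fell, and 7 did not pass. Of all tested genes, 13.6% passed, 6.15% higher and 7.42% lower in siHk2, so a count of 2 among 9 says little by itself about these genes as a group. Before adjustment, 4 of the 9 had a limma p under 0.05, as did 30.7% of the 13341. The siHk2 and siControl libraries did not overlap for 3 of the 9, and for 35.7% of the 13341, so that share is near the background. The median log2 fold change of the 9 was 0.06, and that of all tested genes 0.01.

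**Figure D1:**
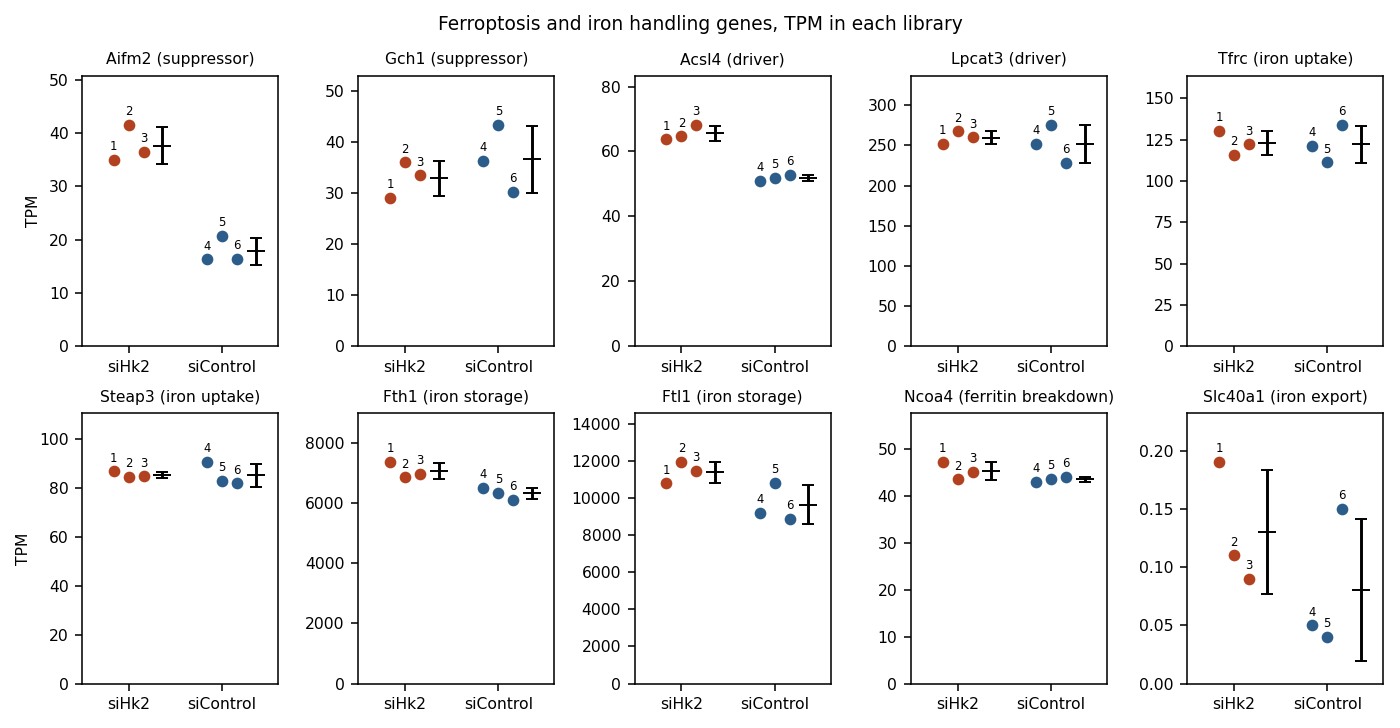
TPM of each of the 10 genes in every library, siHk2 at the left and siControl at the right of each panel, with library numbers beside the points and the mean ± SD (n = 3) as a bar; each axis starts at 0 and has its own scale. The siHk2 points of Aifm2 (34.9 to 41.5 TPM) lie above the siControl points (16.3 to 20.7 TPM), while those of Tfrc, Steap3, Lpcat3, Gch1 and Ncoa4 overlap.

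Aifm2 showed the largest difference of the 10 genes. It encodes the oxidoreductase also called ferroptosis suppressor protein 1 (FSP1), which sits at membranes and uses NAD(P)H to regenerate reduced coenzyme Q, a radical trap that stops lipid peroxidation without glutathione. Its level was 34.9, 41.5 and 36.4 TPM in the siHk2 libraries, against 16.3, 20.7 and 16.4 TPM in the siControl libraries. The lowest siHk2 library lay well above the highest siControl library. The means were 37.6 ± 3.47 TPM in siHk2 and 17.8 ± 2.498 TPM in siControl (SD, n = 3 each), a ratio of 2.11. In limma the log2 fold change was 1.04 with an SE of 0.108 (95% confidence interval 0.79 to 1.29), and the adjusted p was 0.00261. Among the 13341 tested genes, 66 had a larger log2 fold change and 91 a smaller p. Over 16 alternative settings, which include leaving out each library and leaving out libraries 2 and 5 together, the log2 fold change stayed between 0.97 and 1.15 and the adjusted p reached at most 0.0203.

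Aifm2 (ENSMUSG00000020085) is on chromosome 10, plus strand, between 61551042 and 61575039 (build GRCm39). Its last 596 bases overlap Macroh2a2 on the other strand. Macroh2a2 averaged 2.95 TPM over the 6 libraries and was below Aifm2 in each of them. No 50-base window of the longest annotated Aifm2 transcript occurs in a transcript of another gene. The RefSeq promoter table (GRCm38.p6) lists 1 start site for Aifm2. It coincides with an annotated start of the gene in GENCODE M21 and lies 5386 bases inside the outermost one. The 250 bases before that start, plus strand, are shown because Aifm2 is the gene with the largest difference. The capitals mark AGGTCA, the core sequence recognised by many nuclear receptors, searched on both strands.

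Aifm2, chr10:61720399-61720648 (GRCm38.p6): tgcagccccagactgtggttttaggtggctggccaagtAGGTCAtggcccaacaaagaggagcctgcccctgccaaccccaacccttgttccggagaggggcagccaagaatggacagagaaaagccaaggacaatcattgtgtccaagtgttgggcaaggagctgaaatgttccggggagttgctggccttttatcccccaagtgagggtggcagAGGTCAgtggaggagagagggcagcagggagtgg

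This window holds AGGTCA 2 times, and 14% of 32851 RefSeq promoter windows of the same length hold it at least 1 time. The share that holds it 2 or more times was not computed. It holds neither TGACNNNGC, the core of the antioxidant response element (10.2% of windows), nor the E-box CACGTG (6.02%). The window of Acsl4 holds none of the 3 motifs. Aifm2 was not alone in holding AGGTCA: it occurs 4 times in 1 of the 4 Steap3 windows, and 1 of the 3 Ncoa4 windows holds it 1 time together with TGACNNNGC, and neither Steap3 nor Ncoa4 passed the test. Such matches describe letters only, and which start site the cells used is not known from gene-level values.

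The other suppressor, Gch1, did not pass. It encodes GTP cyclohydrolase 1, the rate-limiting enzyme of tetrahydrobiopterin synthesis, whose product is a radical trap independent of coenzyme Q. Its level was 29.1, 35.99 and 33.5 TPM in siHk2, against 36.3, 43.4 and 30.2 TPM in siControl. The groups overlapped widely, with a mean of 32.8 ± 3.50 TPM in siHk2 and 36.6 ± 6.58 TPM in siControl (SD, n = 3 each). The log2 fold change was -0.14 (95% confidence interval -0.46 to 0.17, adjusted p = 0.520 in limma), so the interval includes changes of either sign.

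Acsl4, the second gene that passed, encodes the acyl-CoA synthetase that activates arachidonic and adrenic acid for insertion into phospholipids. Its level was 63.7, 64.7 and 68.2 TPM in siHk2, against 50.9, 51.8 and 52.7 TPM in siControl. The groups were tight and did not overlap. The means were 65.5 ± 2.37 TPM in siHk2 and 51.8 ± 0.895 TPM in siControl (SD, n = 3 each), a ratio of 1.27. In limma the log2 fold change was 0.33 with an SE of 0.0476 (95% confidence interval 0.22 to 0.44), and the adjusted p was 0.00705. Over the same 16 settings it lay between 0.30 and 0.37, with an adjusted p of at most 0.0482. Acsl4 (ENSMUSG00000031278) lies on the minus strand of the X chromosome, from 141100989 to 141173531 (GRCm39), and overlaps no other gene of the table.

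Lpcat3, which encodes the acyltransferase that inserts the activated polyunsaturated chains into lysophospholipids, did not pass. It stood at 252, 268 and 260 TPM in siHk2, against 252, 276 and 228 TPM in siControl. The siHk2 values fell inside the siControl range. The log2 fold change was 0.05 (95% confidence interval -0.11 to 0.21, adjusted p = 0.690 in limma). On this TPM scale Lpcat3 was the more abundant of the 2 lipid genes in every library. Its last 334 bases overlap Emg1 on the other strand, which averaged 49.4 TPM, and reads of that stretch may not have been separated by strand.

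In the same siHk2 libraries the fibroblast marker Vim, an intermediate filament gene, fell to 1969 ± 58.5 TPM in siHk2, against 2365 ± 51.2 TPM in siControl (SD, n = 3 each, adjusted p = 0.0110 in limma). The 10 fibroblast markers summed to 3549 to 3836 TPM in siHk2 and 3798 to 3881 TPM in siControl, and Vim was the 1 that passed. The other tested fibroblast markers did not move with Vim. Log2 fold changes were 0.63 for Col1a1, 0.15 for Col1a2, 0.20 for Col3a1, 0.20 for Pdgfrb and 0.32 for Fn1. Pdgfra was at -0.06. Of 8 listed adipocyte markers, 6 had a row and 4 reached a mean of 1 TPM and were tested. Of those 4, 3 rose (Cidec, Lpl and Pparg), beside 6.15% of all tested genes. Fabp4, also tested, did not pass (log2 fold change 0.38, adjusted p = 0.219 in limma). The summed level of the 6 with a row was 1361 to 1419 TPM in siHk2, against 873 to 899 TPM in siControl. The defining fat cell marker Adipoq was at no more than 0.15 TPM in siHk2 and 0.35 TPM in siControl. The epithelial marker Krt7 also rose, and the 7 epithelial markers summed to 6.25 to 9.01 TPM in siHk2, against 2.34 to 3.57 TPM in siControl, with Epcam at 0 in all siHk2 libraries. The 12 macrophage markers summed to 56.2 to 65.9 TPM in siHk2 and 56.3 to 84.4 TPM in siControl, and none of them passed. How the calls of these markers depend on the setting was not recorded. The part of such markers in the rises of Aifm2 and Acsl4 was not tested. In bulk samples, fewer cells of a type and less RNA per cell cannot be told apart.

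**Figure D2:**
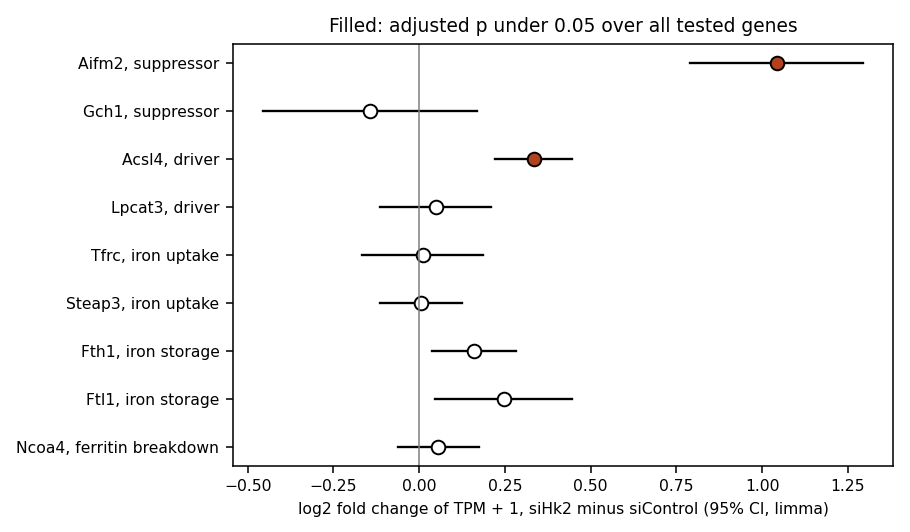
Log2 fold change (siHk2 minus siControl, on the log2(TPM + 1) scale) of the 9 tested genes with its 95% confidence interval from limma, by role; filled points passed an adjusted p of 0.05. The intervals of Aifm2 (0.79 to 1.29) and Acsl4 (0.22 to 0.44) and those of Fth1 and Ftl1, which did not pass after adjustment, lie above 0.

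Iron enters most cells as transferrin bound to the transferrin receptor (Tfrc), is reduced in endosomes by the ferrireductase Steap3, and is stored in ferritin, a shell of heavy (Fth1) and light (Ftl1) chains. Ncoa4 carries ferritin to lysosomes for breakdown, and ferroportin (Slc40a1) exports iron. Several of these messages carry an iron-responsive element (IRE), a hairpin bound by the iron regulatory proteins when iron is scarce. Bound before the coding region it blocks translation, as in ferritin, and bound after it, as in Tfrc, it protects the message from decay, so the level of the Tfrc message, more than that of the ferritin messages, follows cellular iron in textbook accounts.

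An IRE pattern was searched in the longest coding transcript of 21877 genes (GENCODE M21, GRCm38). The pattern was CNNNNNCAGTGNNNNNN on the transcript strand, with a loop whose last base is not G and with all 5 base pairs of the upper stem formed. It occurred in the 5' untranslated region (UTR) of 0.0731% of these genes and in the 3' UTR of 0.421%. Of the 10 genes, Fth1, Ftl1 and Slc40a1 had 1 site each in the 5' UTR, Tfrc had 4 in the 3' UTR, and the other 6 had none. The sites are shown because they are the feature these iron genes share, with 30 bases each and the loop bases CAGTG in capitals.
Fth1, chr19:9982732-9982761, plus strand: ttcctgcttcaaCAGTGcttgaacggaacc
Ftl1, chr7:45459778-45459807, minus strand: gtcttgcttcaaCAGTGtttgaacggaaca
Slc40a1, chr1:45925464-45925493, minus strand: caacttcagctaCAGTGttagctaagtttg
Tfrc site 1, chr16:32631219-32631248, plus strand: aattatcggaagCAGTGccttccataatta
Tfrc site 2, chr16:32631598-32631627, plus strand: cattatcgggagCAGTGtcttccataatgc
Tfrc site 3, chr16:32631663-32631692, plus strand: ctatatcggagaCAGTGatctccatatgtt
Tfrc site 4, chr16:32631710-32631739, plus strand: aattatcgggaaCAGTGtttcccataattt

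The uptake genes showed no difference that passed. Tfrc was at 130, 116 and 122 TPM in siHk2, against 121, 111 and 134 TPM in siControl. The groups interleaved, and the log2 fold change was 0.01 (95% confidence interval -0.17 to 0.19, adjusted p = 0.949 in limma). Steap3 was at 86.7, 84.6 and 84.8 TPM in siHk2, against 90.5, 82.9 and 81.9 TPM in siControl. Here too the siHk2 values lay inside the siControl range, with a log2 fold change of 0.01 (95% confidence interval -0.11 to 0.13, adjusted p = 0.958 in limma). The sign of both values changed when single libraries were left out.

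The ferritin chains were by far the most abundant of the 10 transcripts, with Ftl1 at rank 4 and Fth1 at rank 9 of all rows by mean TPM. Together they made up 1.81%, 1.88% and 1.84% of the TPM in siHk2, against 1.57%, 1.72% and 1.5% in siControl. Fth1, the chain with ferroxidase activity, was at 7365, 6864 and 6971 TPM in siHk2, against 6509, 6351 and 6121 TPM in siControl. The groups did not overlap, yet the difference was small, with means of 7067 ± 264 TPM in siHk2 and 6327 ± 195 TPM in siControl (SD, n = 3 each). Its log2 fold change was 0.16 (95% confidence interval 0.04 to 0.28, adjusted p = 0.0867 in limma), which did not pass. Ftl1, the chain that aids mineral formation, was at 10776, 11920 and 11442 TPM in siHk2, against 9175, 10817 and 8882 TPM in siControl. The highest siControl library, 5, reached past the lowest siHk2 library, 1. Its log2 fold change was 0.25 (95% confidence interval 0.05 to 0.45, adjusted p = 0.0991 in limma).

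The ferritin values depended on the setting. Fth1 passed in 2 of 16 alternatives (a filter of 5 TPM, adjusted p = 0.0472, and robust moderation, adjusted p = 0.0445), and Ftl1 in 2 (library weights, adjusted p = 0.0118, and without siControl library 5, log2 fold change 0.33 and adjusted p = 0.0259). In the other alternatives neither passed, with adjusted p up to 0.596 for Fth1 and 0.581 for Ftl1, both with no filter on low values, and up to 0.253 and 0.264 with single libraries left out. Both kept a positive sign in all 16. The level of Ftl1 is uncertain, because 78.9% of the 50-base windows of its longest coding transcript recur in 15 other genes, pseudogenes included, against 4.01% for Fth1. A copy with its own row in the table, Ftl1-ps1, was at 73.6, 90.1 and 88.2 TPM in siHk2, against 67.8, 84.0 and 69.9 TPM in siControl.

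The balance between the chains did not differ beyond the spread of the libraries. The ratio of Fth1 to Ftl1 was 0.683, 0.576 and 0.609 in siHk2, against 0.709, 0.587 and 0.689 in siControl (two-sided exact permutation test of the log2 ratio, p = 0.4, where the smallest possible p with 3 libraries per group is 0.1). Low ratios came from siHk2 library 2 and siControl library 5, where Ftl1 was high. The ratio of Tfrc to Fth1, uptake receptor against store, was 0.0177, 0.0169 and 0.0175 in siHk2, against 0.0186, 0.0175 and 0.0219 in siControl (two-sided exact permutation test, p = 0.3).

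Ncoa4, the cargo receptor for ferritin breakdown, was at 47.1, 43.5 and 45.1 TPM in siHk2, against 42.9, 43.6 and 43.9 TPM in siControl. The groups overlapped, with a log2 fold change of 0.06 (95% confidence interval -0.06 to 0.17, adjusted p = 0.511 in limma). Of its 50-base windows, 43.1% recur in 1 other gene, which leaves its level uncertain as well. Slc40a1, the iron exporter, was near 0 in all libraries, at 0.19, 0.11 and 0.09 TPM in siHk2, against 0.05, 0.04 and 0.15 TPM in siControl. It did not reach the filter and was not tested, and no fold is given at such levels.

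Positions of these iron genes in the deposited table (GRCm39) are as follows. Tfrc (ENSMUSG00000022797) lies on chromosome 16 from 32427738 to 32451612, and Steap3 (ENSMUSG00000026389) on chromosome 1 from 120118487 to 120200435. Fth1 (ENSMUSG00000024661) lies on chromosome 19 from 9957962 to 9962462, and Ftl1 (ENSMUSG00000050708) on chromosome 7 from 45107368 to 45109308. Fth1 is overlapped on the other strand by a long non-coding RNA gene that averaged 0.117 TPM.

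**Figure D3:**
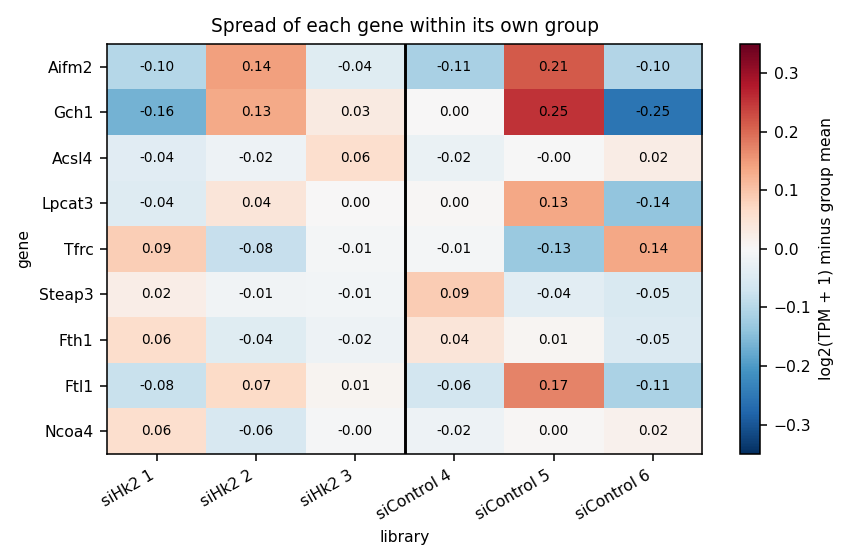
Deviation of each library from the mean of its own group, log2(TPM + 1), for the 9 tested genes (rows) in siHk2 libraries 1 to 3 and siControl libraries 4 to 6 (columns); red is above and blue below the group mean. Aifm2, Gch1, Lpcat3 and Ftl1 are highest of their group in siHk2 library 2 and siControl library 5, and Tfrc is lowest there.

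The genes also differed in how they varied inside a group. Aifm2, Gch1, Lpcat3 and Ftl1 (4 of the 9) were highest of their group in siHk2 library 2 and in siControl library 5, and Tfrc was lowest of its group in both. These are the libraries set apart on the second principal component. Gch1 spread the most, from -0.25 in siControl library 6 to 0.25 in siControl library 5 around the group mean. Acsl4, Steap3, Fth1 and Ncoa4 deviated by less than 0.1 in every library. Without libraries 2 and 5 Aifm2 had a log2 fold change of 1.08 (adjusted p = 0.00557 in limma) and Acsl4 had 0.34 (adjusted p = 0.0482), so both still passed.

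The wider pathway was described by 8 lists. Leaving out the 10 genes above, the lists name 118 genes, of which 116 have a row and 95 were tested. In siHk2, 6 of these 95 rose and 8 fell, beside the 6.15% and 7.42% of all tested genes, so the share is near the background. Their median log2 fold change was 0.04, and that of all tested genes 0.01. These counts depend on the libraries: without siHk2 library 3 they were 0 higher and 2 lower, without siControl library 4 they were 1 and 3, without siHk2 library 2 they were 2 and 3, and without libraries 2 and 5 together 2 and 4.

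**Figure D4:**
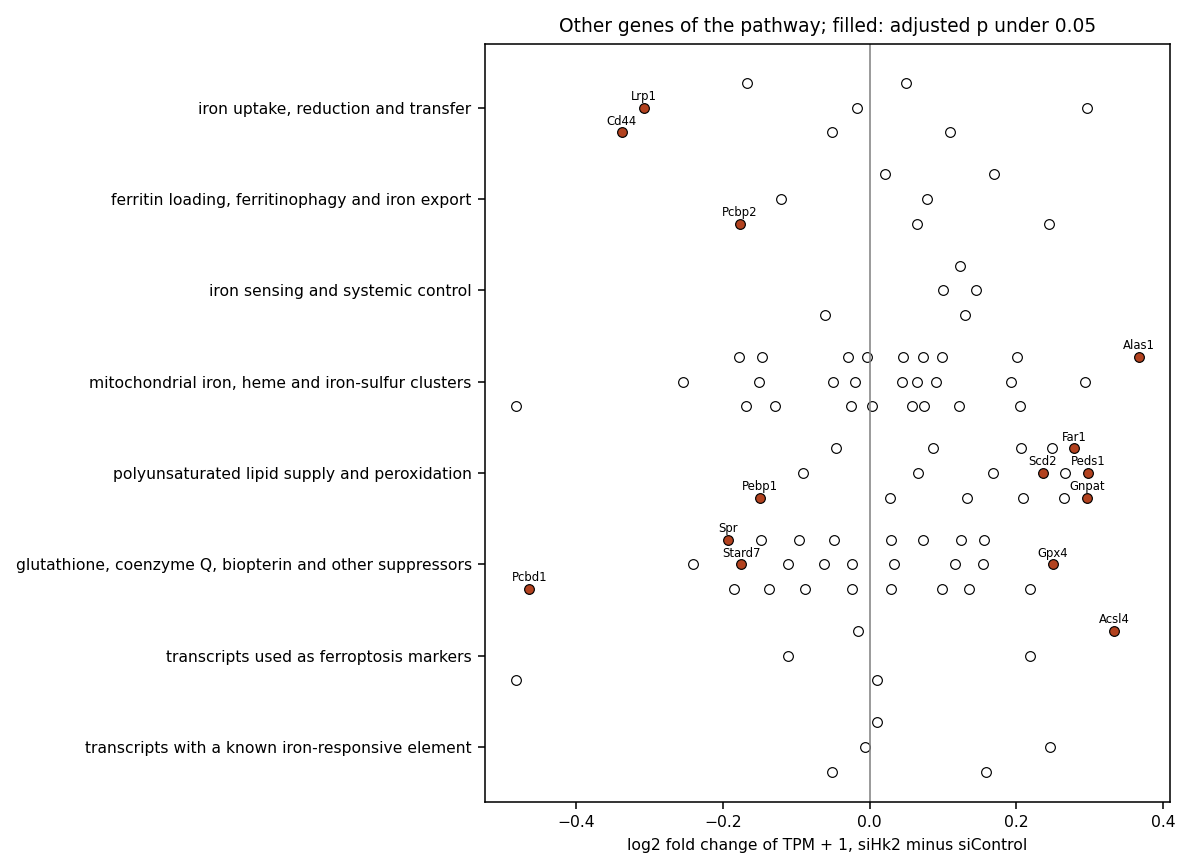
Log2 fold change (siHk2 minus siControl, log2(TPM + 1) scale) of tested genes of 8 lists, without genes not reported here; each point is a gene, filled and named where it passed an adjusted p of 0.05 in limma, with points shifted vertically for legibility. The last 2 lists include some of the 10 genes described above, and the filled points lie on both sides of 0.

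Among the suppressors, which cover glutathione, coenzyme Q and biopterin, 1 of 27 tested genes rose, 4 fell and 22 did not pass (median log2 fold change -0.02). Of all tested genes, 6.15% rose and 7.42% fell, with a median of 0.01. Gpx4, the selenoenzyme that reduces phospholipid hydroperoxides with glutathione, was at 909, 928 and 920 TPM in siHk2, against 746, 811 and 762 TPM in siControl. It rose by 0.25 on the log2 scale (adjusted p = 0.0131 in limma), with no overlap between the groups. That call was lost when siControl library 4, siHk2 library 2 or siHk2 library 3 was left out (adjusted p up to 0.0703), and 61.7% of its 50-base windows recur in 2 other genes, which leaves its level uncertain.

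Among the suppressors that fell were Pcbd1, Spr and Stard7. Pcbd1, a dehydratase of biopterin recycling, had a mean of 44.5 ± 3.68 TPM in siHk2 and 61.8 ± 6.75 TPM in siControl (SD, n = 3 each, adjusted p = 0.0203 in limma). Spr, sepiapterin reductase, which completes biopterin synthesis, had a mean of 74.0 ± 0.816 TPM in siHk2 and 84.7 ± 2.69 TPM in siControl (SD, n = 3 each, adjusted p = 0.0302 in limma). Stard7, which carries phosphatidylcholine and coenzyme Q between membranes, was at 71.7 ± 0.231 TPM in siHk2 and 81.1 ± 2.03 TPM in siControl (SD, n = 3 each, adjusted p = 0.0351 in limma). The calls of Pcbd1, Spr and Stard7 were lost in 4, 6 and 7 of the 16 alternatives. Without libraries 2 and 5 their adjusted p was 0.0510, 0.0927 and 0.117. Leaving out siHk2 library 1 or 3 alone also ended all 3 calls (adjusted p up to 0.0706, 0.113 and 0.120), siControl library 4 or siHk2 library 2 ended those of Spr and Stard7, and siControl library 6 that of Stard7 (0.0523).

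Of 17 tested genes of polyunsaturated lipid supply and peroxidation, 4 rose, 1 fell and 12 did not pass, with 14 values above 0 (median log2 fold change 0.21). Of all 13341 tested genes, 6826 were above 0, 6.15% rose and 7.42% fell, with a median of 0.01. Gnpat, which starts ether lipid synthesis in peroxisomes, was at 161, 179 and 166 TPM in siHk2, against 135, 139 and 137 TPM in siControl (adjusted p = 0.0112 in limma). Far1, which provides fatty alcohol for the same lipids, was at 44.3 ± 2.11 TPM in siHk2 and 36.4 ± 3.01 TPM in siControl (SD, n = 3 each, adjusted p = 0.0440 in limma). Peds1, the desaturase that forms the vinyl-ether bond of plasmalogens, was at 75.8 ± 5.69 TPM in siHk2 and 61.4 ± 4.26 TPM in siControl (SD, n = 3 each, adjusted p = 0.0375 in limma). The siHk2 and siControl libraries did not overlap for any of the 3, nor for 35.7% of all tested genes. These 3 were named because they passed, so the lack of overlap adds no separate support.

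The fourth rise on that list was Scd2, a desaturase that makes monounsaturated fatty acids, which do not peroxidise readily. It was at 1653 ± 34.0 TPM in siHk2 and 1404 ± 50.2 TPM in siControl (SD, n = 3 each, adjusted p = 0.0159 in limma). The list thus holds rises of genes with opposed roles. Pebp1, a protein that binds lipoxygenases, fell to 545 ± 15.0 TPM in siHk2, against 605 ± 13.3 TPM in siControl (SD, n = 3 each, adjusted p = 0.0499 in limma), a call lost in 11 of 16 alternatives, and 34.2% of its 50-base windows recur in 2 other genes. The calls of Gnpat, Scd2, Peds1 and Far1 were lost in 3, 7, 7 and 8. Without libraries 2 and 5 the adjusted p was 0.0550 for Gnpat, 0.0651 for Scd2, 0.173 for Peds1, 0.193 for Far1 and 0.171 for Pebp1, so none of the 5 passed. Each of the 5 calls was also lost without siControl library 4 alone (adjusted p 0.0508 to 0.137) and without siHk2 library 3 alone (0.0529 to 0.153). Leaving out siHk2 library 2 ended those of Scd2, Peds1, Far1 and Pebp1, siHk2 library 1 those of Scd2, Far1 and Pebp1, siControl library 5 those of Peds1, Far1 and Pebp1, and siControl library 6 that of Pebp1.

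Of 8 tested genes of iron uptake, reduction and transfer, 2 fell and none rose, beside 7.42% and 6.15% of all tested genes. Cd44, a hyaluronan receptor also described in iron endocytosis, was at 30.4, 29.3 and 29.9 TPM in siHk2, against 38.5, 37.0 and 38.7 TPM in siControl (adjusted p = 0.00817 in limma, kept in all 16 alternatives). Lrp1, a receptor that also takes up heme bound to hemopexin, was at 103, 93.3 and 96.4 TPM in siHk2, against 131, 108 and 124 TPM in siControl (adjusted p = 0.0390 in limma). The Lrp1 call was lost in 7 alternatives, among them each single library left out except siControl library 5 (adjusted p up to 0.126), and was kept without libraries 2 and 5. Both have functions outside iron uptake. The endosomal iron transporter gene Slc11a2 stood at 45.9 ± 0.852 TPM in siHk2 and 47.7 ± 3.42 TPM in siControl (SD, n = 3 each, adjusted p = 0.621 in limma), and the ferrireductase gene Steap1 at 421 ± 11.9 TPM in siHk2 and 391 ± 12.5 TPM in siControl (SD, n = 3 each, adjusted p = 0.132 in limma).

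Of 7 tested genes of ferritin loading, ferritinophagy and iron export, 1 fell, beside 7.42% of all tested genes. Pcbp2, an RNA-binding protein that also delivers iron to ferritin, was at 364, 341 and 346 TPM in siHk2, against 408, 393 and 388 TPM in siControl (adjusted p = 0.0358 in limma). That call was lost in 8 of 16 alternatives, among them without libraries 2 and 5 together (adjusted p = 0.166) and with each single library left out except siControl library 6 (up to 0.139). Its relative Pcbp1, with the same delivery role, was lower in every siHk2 library but did not pass, at 579 ± 21.2 TPM in siHk2 and 629 ± 22.3 TPM in siControl (SD, n = 3 each, adjusted p = 0.124 in limma). Herc2, on the same list, was higher in every siHk2 library but did not pass (log2 fold change 0.17, adjusted p = 0.0741 in limma). The mean of Herc2 was 27.3 ± 0.449 TPM in siHk2 and 24.2 ± 0.445 TPM in siControl (SD, n = 3 each).

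None of 5 tested genes of iron sensing passed in limma, with 1 of 5 at an unadjusted p under 0.05, beside 30.7% of all tested genes. That gene was Aco1, cytosolic aconitase, which becomes iron regulatory protein 1 when it loses its iron-sulfur cluster. It was at 109, 108 and 108 TPM in siHk2, against 97.5, 104 and 95.4 TPM in siControl (adjusted p = 0.103). Ireb2, iron regulatory protein 2, was at 33.3, 35.98 and 37.8 TPM in siHk2, against 30.4, 31.7 and 34.4 TPM in siControl (adjusted p = 0.217). The other 5 listed genes of this group, among them the hepcidin genes Hamp and Hamp2, did not reach a mean of 1 TPM.

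Of 27 tested genes of mitochondrial iron, heme and iron-sulfur clusters, 1 rose, beside 6.15% of all tested genes. Alas1, which catalyses the first step of heme synthesis, was at 38.7, 37.1 and 40.8 TPM in siHk2, against 30.5, 30.7 and 28.6 TPM in siControl, a log2 difference of 0.37 (adjusted p = 0.0105 in limma). The call was lost in 1 of 16 alternatives, without siHk2 library 3 (adjusted p = 0.0548). Hmox1, heme oxygenase 1, which breaks heme down and frees its iron, was at 255, 185 and 263 TPM in siHk2, against 352, 288 and 334 TPM in siControl. The groups did not overlap, but the value did not pass (log2 fold change -0.48, adjusted p = 0.0602), and it passed in 3 of the 16 alternatives, among them without libraries 2 and 5 (log2 fold change -0.40, adjusted p = 0.0253). The mitochondrial iron importer gene Slc25a37 was at 94.96 ± 3.90 TPM in siHk2 and 108 ± 3.55 TPM in siControl (SD, n = 3 each, adjusted p = 0.0530 in limma).

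Of 6 tested transcripts in common use as markers of ferroptosis, Acsl4 rose and the other 5 did not pass. Of the 6 values 3 were above 0, with a median log2 fold change of -0.003. Hmox1, described above, is on this list and was lower in every siHk2 library (log2 fold change -0.48). Atf3, also listed, did not reach a mean of 1 TPM. The share of all tested genes that rose was 6.15%. Slc7a11, the cystine importer that feeds glutathione synthesis, was at 21.0, 22.8 and 23.3 TPM in siHk2, against 19.0, 19.6 and 18.6 TPM in siControl. The groups did not overlap, and the adjusted p was 0.0668. Ptgs2, the inducible cyclooxygenase gene, varied more inside the groups than between them, at 9.03, 3.71 and 4.25 TPM in siHk2, against 6.92, 3.45 and 7.88 TPM in siControl. None of 6 tested transcripts on the list of known IRE carriers passed in limma. Fth1 and Ftl1 had an unadjusted limma p under 0.05, as did 30.7% of all tested genes.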

How the data were processed

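The authors deposited 1 table of TPM values with 2 decimals, 1 column per library. Per the labels' protocols, poly(A) RNA was sequenced as DNA nanoballs; the text describes dUTP strand marking, but no source used here says whether counting used strand. The build was GRCm39 per the submitters' processing notes, and aligner, counter and annotation are not given. TPM keeps no depth. Titles exist for each numbered siHk2 column and for none of the siControl numbers, so those columns are replicates without identity. No 2 columns were identical.

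A mean of 1 TPM or more was required, and genes were fitted with limma 3.58.1 (R 4.3.3) on log2(TPM + 1), with a mean-variance trend and no covariate, two-sided, Benjamini-Hochberg adjusted over all 13341 tested genes. Fold changes on this scale understate changes of low genes. Ratios are of mean TPM. The fit was tested on simulated data with 100 genes changed at each of 2 sizes. It called 78.1% of those changed by a log2 fold change of 1 and 49.4% of those changed by 0.5. Of all its calls there, 5.42% were false. Smaller changes were not simulated. The simulation changed fewer genes than the 1810 that passed in the real data. It also drew libraries independently, without the spread inside groups seen on the second principal component. Its shares therefore need not hold for the real fit. Some listed genes stay in the counts but are not reported here by name. The 10 genes, the lists, the motifs and the tests were chosen with earlier results of these data known. Named besides the 10 are, per list, up to 4 genes with the smallest p and, where 5 or fewer passed, all of them. Por, Cyb5r1 and genes named for near-zero levels or as markers were chosen after their values were seen.

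Transcripts and UTRs came from GENCODE M21 and promoters from RefSeq, both on GRCm38, and no coordinate was converted. A promoter was found for 9 of the 10 genes. Alternatives were other pseudocounts, filters, scalings, moderation and library weights, each library left out, and, chosen after seeing the data, libraries 2 and 5 left out together. Figures were drawn with matplotlib 3.10.9 in Python 3.11.15.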

Additional observations from a re-analysis of the deposited data

How the results depend on the processing

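In 16 alternatives of the fit, 2 or 3 of the 10 genes were higher and 0 lower, and Aifm2, Acsl4 and Hk2 kept direction and call in each. The number of all tested genes that passed, 1810, was 1186 with no filter, 1057 without a mean-variance trend, 4040 with library weights, 616 without libraries 2 and 5 together, and 506 to 2129 with single libraries left out. The related genes numbered 6 higher and 8 lower. They were 3 and 5 with no filter, 3 and 2 without a trend, 20 higher with library weights, 2 and 4 without libraries 2 and 5, and 0 to 8 higher and 2 to 6 lower with single libraries left out.

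Of the named values for which alternatives were recorded, 5 changed sign in some alternative, and none of the 5 passed the test. With single libraries left out, the log2 fold change ranged from -0.0547 to 0.0783 for Tfrc, -0.0211 to 0.0503 for Steap3, -0.0207 to 0.115 for Lpcat3, -0.0834 to 0.00571 for Slc11a2 and -0.449 to 0.0960 for Ptgs2. Steap3 was at -0.0517 with library weights. Dropping libraries 2 and 5 together gave -0.0146 for Tfrc and -0.00620 for Steap3. The cause of these changes was not tested. Both ratios kept their sign in 8 alternatives each, with log2 differences of -0.17 to -0.03 (Fth1 to Ftl1) and -0.22 to -0.06 (Tfrc to Fth1).

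No paired analysis was possible because the siControl columns carry numbers that no sample title has. Scalings moved the median log2 fold change of all genes by less than 0.1. With 3 libraries per group, TPM without depth and unknown culture identity, a value that did not pass does not show that the groups were alike.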

Other observations

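Among enzymes that can start lipid peroxidation, 4 of the 5 listed lipoxygenase genes were near 0. Alox5 reached at most 0.05 TPM in siHk2 and was listed at 0 in all siControl libraries, Alox12 reached at most 0.36 TPM in either group, Alox12b at most 0.17 TPM in siHk2 and 0.32 TPM in siControl, and Alox15 at most 0.09 TPM in siHk2 and 0.13 TPM in siControl. Aloxe3 was at 1.27, 1.23 and 1.3 TPM in siHk2, against 1.41, 1.31 and 0.75 TPM in siControl, and did not pass (adjusted p = 0.811 in limma). The NADPH oxidase genes Nox1, Nox4 and Cybb stayed at or below 0.25 TPM in every library. Por, the cytochrome P450 reductase, which can also feed electrons to peroxidation, was at 169, 146 and 154 TPM in siHk2, against 168, 127 and 168 TPM in siControl (adjusted p = 0.895 in limma), so the groups overlapped. Cyb5r1, a reductase with a similar reported role, was at 213, 236 and 223 TPM in siHk2, against 236, 273 and 210 TPM in siControl (adjusted p = 0.557 in limma).

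Of the ferritin relatives, Ftl1-ps1 did not pass (log2 fold change 0.18, adjusted p = 0.284 in limma). Cp, ceruloplasmin, a ferroxidase that works with the iron exporter, was at 304, 246 and 265 TPM in siHk2, against 250, 194 and 246 TPM in siControl (adjusted p = 0.196 in limma), in cells where Slc40a1 itself was near 0.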
